A study of Mus musculus with 11 samples.

Results

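A set of 10 genes of antigen presentation by MHC class II were followed across sorted cells of the mouse adrenal gland. They are the class II chain genes H2-Aa, H2-Ab1 and H2-Eb1, the peptide-loading genes H2-DMa, H2-DMb1 and H2-DMb2, the invariant chain gene Cd74, the transactivator gene Ciita, and the costimulatory ligand genes Cd86 and Cd80. They were chosen by gene symbol, matched to the Ensembl gene identifiers of the count table, and make up 10 of its 49671 genes. All 10 were among the 20893 genes that passed the filter on low counts.

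The animals were 6 male mice of the strain labelled Nes-GFP, in which green fluorescent protein (GFP) is driven by regulatory sequence of Nestin, so GFP reports that transgene and not the Nestin protein. Adrenal cortex and medulla were separated by dissection, pooled in 3 groups of 2 mice, digested to single cells, and sorted by GFP. Between 180 and 300 cells went into each tube and the cDNA was amplified for 17 PCR cycles. There were 3 cortex GFP-positive libraries (mice of about 3.5, 3.5 and 2.5 months), 3 cortex GFP-negative libraries (3.5, 3.5 and 2.5 months), 3 medulla GFP-positive libraries (3.5, 2.5 and 2.5 months) and 2 medulla GFP-negative libraries (both 3.5 months). All carry the reporter, all come from males, and the labels do not tie a library to a pool of mice. If no pool mixed ages, the ages of the cortex and medulla GFP-positive libraries mean that libraries of some group share a pool of mice. All tests use the spread between libraries, which may be technical, and the libraries of a group may not be independent animals. The genetic background, and with it the MHC haplotype, is not given in the sources used here. Where the haplotype differs from the reference, reads of H2 genes can fail to map, which would lower their levels and their ratios to Cd74.

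Class II molecules are surface proteins made of an alpha and a beta chain that display peptides from the endosomal pathway to CD4+ T cells. The invariant chain fills the groove of new class II molecules and guides them to endosomes, where H2-DM helps exchange its remnant for an antigenic peptide. The chain, loading and invariant chain genes are switched on together by Ciita, a coactivator that binds no DNA itself and is recruited to factors on the X and Y boxes of the promoters. Macrophages, dendritic cells and B cells are the usual class II-positive cells, and Cd80 and Cd86 give T cells the second signal through CD28.

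Every library held between 18500690 and 29204212 counts on genes, and the level that 3 counts would give was 0.104 to 0.157 CPM (counts scaled to library totals adjusted by the trimmed mean of M-values, TMM). Nes ran from 35.2 to 50.8 CPM in cortex GFP-positive libraries against 4.59 to 7.44 CPM in cortex GFP-negative ones, and from 69.2 to 178 CPM in medulla GFP-positive libraries against 16.1 and 26.1 CPM in medulla GFP-negative ones. Of the tissue checks, 8 chromaffin cell markers summed to 5015 CPM or more in every medulla library, to 102 CPM in cortex GFP-positive library 1 and to 8.64 CPM or less in the other cortex libraries. Markers of the steroid-producing cortex (8 genes) summed to 34560 to 65460 CPM in cortex libraries and still to 8204 to 35720 CPM in those labelled medulla. Cortex GFP-positive library 3 stood apart in the genes described here.

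The promoters of 4 of the 10 genes shared a layout. RefSeq promoter windows (GRCm38.p6, the mm10 build of the count table; 250 bases before to 50 after a start site) were found for H2-Aa, H2-Eb1, H2-DMb1, H2-DMb2, Cd80 and, with 2 start sites, H2-DMa, 7 windows in all. H2-Ab1, Cd74, Ciita and Cd86 had no window. The 3 stretches in this paragraph carry X-box-like letters (AAC, then any 2 or 3 bases, then TGANG) followed by the Y-box letters (GATTGG), both in capitals, each on the gene's own strand and read 5′ to 3′. They are shown because these elements are the textbook binding sites of the complex that recruits Ciita. The stretch of H2-DMb2 lies inside the span of that gene in the count table, which begins upstream of the RefSeq start site.
H2-Aa, chr17:34287863-34287912, minus strand: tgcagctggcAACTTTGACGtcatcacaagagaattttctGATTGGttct
H2-Eb1, chr17:34305768-34305816, plus strand: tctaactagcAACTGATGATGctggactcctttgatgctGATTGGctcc
H2-DMb2, chr17:34145118-34145167, plus strand: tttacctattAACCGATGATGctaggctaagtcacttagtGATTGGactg

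The X-box letters began 79 bases before the start site in H2-Aa, 89 in H2-Eb1, 92 in H2-DMb1 and 121 in H2-DMb2, and the Y-box letters began 49, 60, 62 and 91 bases before it. The gap between the pair was 18 to 20 bases in these 4 genes. The letters were chosen after the windows of these genes had been read, so their presence there is a description. Searched on both strands with a gap of 5 to 30 bases, which keeps the motifs from overlapping, the pair stood in 35 of 32851 promoter windows (0.107%). Alone, the X-box letters stood in 5.77% and the Y-box letters in 16.1% of windows. The windows of H2-DMa and Cd80 did not hold the pair, but both windows of H2-DMa lie upstream of the span counted for that gene and do not cover its start in the count table. Of the class II genes outside the 10, windows of H2-Oa, H2-Ob and H2-Eb2 were searched. H2-Ob held the pair, with a gap of 16 bases. H2-Oa and H2-Eb2 did not, as they held the Y-box letters without the X-box letters.

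**Figure D1:**
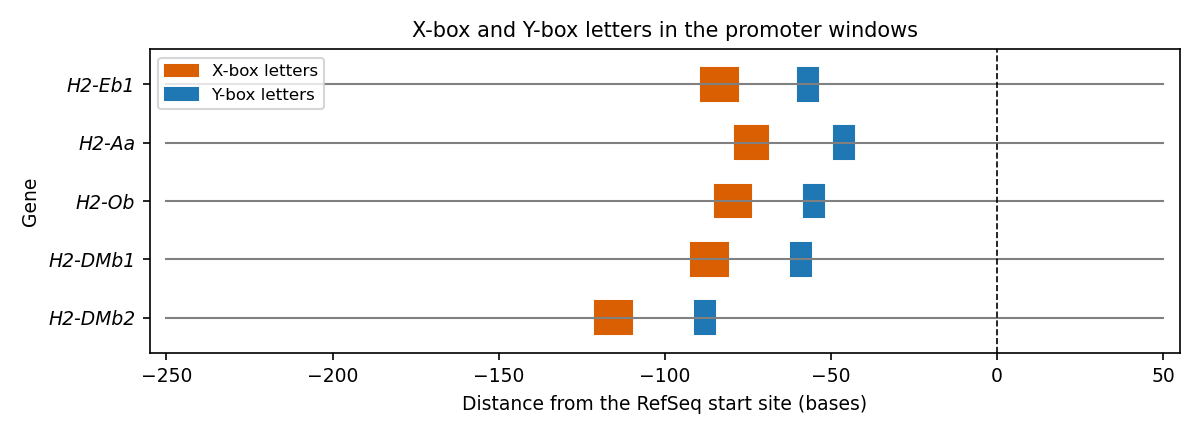
Positions of the X-box letters (orange) and Y-box letters (blue) in the 5 class II promoter windows that held both. The x axis is the distance in bases from the RefSeq start site (dashed line) and each grey line is 1 window. The letters of the pair begin between 121 and 49 bases before the start site in H2-DMb2, H2-DMb1, H2-Aa and H2-Eb1.

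The invariant chain gene Cd74 was the most abundant of the 10 per length of transcript. In medulla GFP-negative cells it reached 12520 ± 868 RPKM (CPM per kilobase of gene length; SD, n = 2), against 7396 ± 225 for H2-Eb1, 4766 ± 38.9 for H2-Aa and 4568 ± 75.1 for H2-Ab1. The loading genes followed with 324 ± 28.04 RPKM for H2-DMa, 294 ± 4.36 for H2-DMb1 and 11.03 ± 1.68 for H2-DMb2. Cd86 reached 82.2 ± 3.28, Ciita 5.49 ± 3.21 and Cd80 5.40 ± 3.90 RPKM. By CPM, Cd74 was the second most abundant gene of all in both medulla GFP-negative libraries (rank 2 and 2), ranked 9 to 16 in cortex GFP-negative libraries, 85 to 255 in medulla GFP-positive ones, and 408, 487 and 6695 in cortex GFP-positive ones. The 10 genes took 4.24% and 4.33% of all counts in medulla GFP-negative libraries, 1.17% to 1.65% in cortex GFP-negative, 0.102% to 0.220% in medulla GFP-positive and 0.0794%, 0.0705% and 0.00719% in cortex GFP-positive libraries.

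For all 10 genes the mean CPM had the same order: cortex GFP-positive lowest, then medulla GFP-positive, then cortex GFP-negative, then medulla GFP-negative. No medulla GFP-positive library reached the lowest cortex GFP-negative library for any of the 10, a contrast that changes gate and tissue together and was not tested. In bulk libraries such as these, fewer class II-positive cells and less RNA per cell cannot be told apart.

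**Figure D2:**
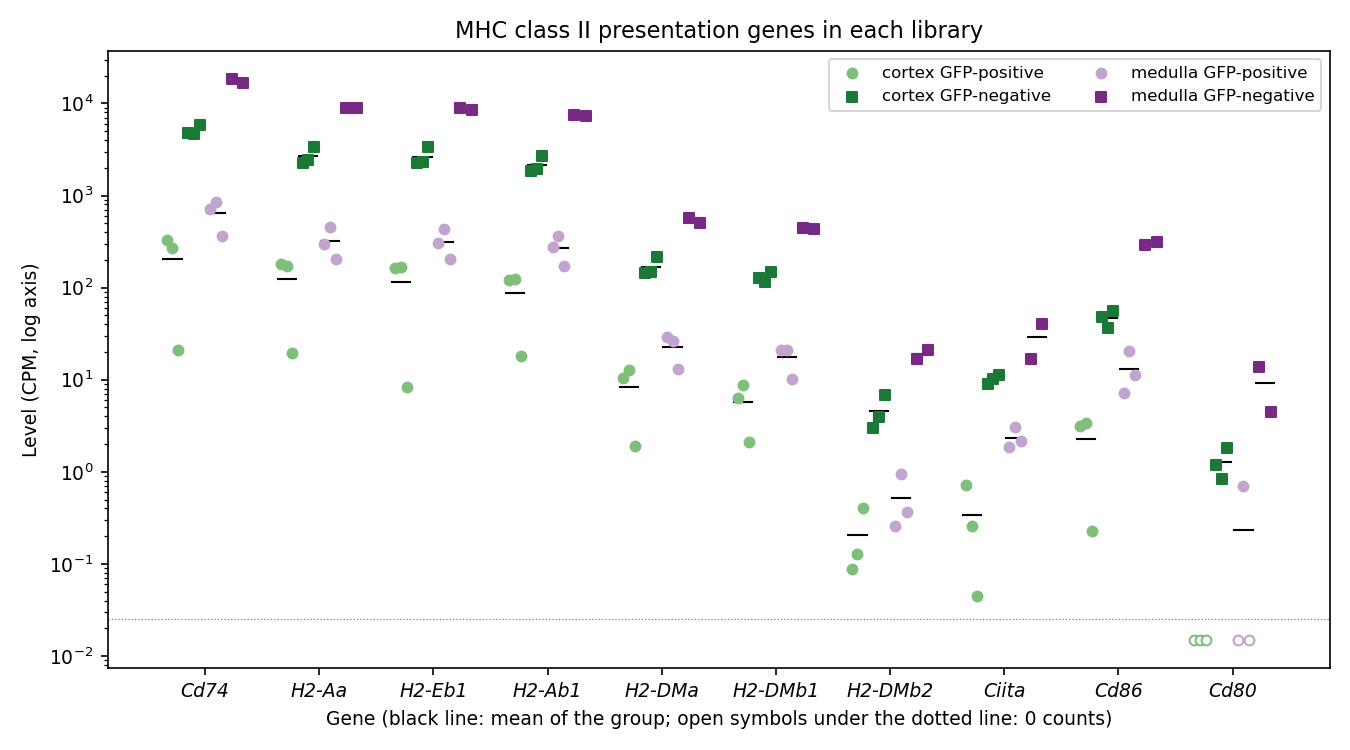
Level of each gene in each library (CPM, log axis), with the group mean as a black line and open symbols under the dotted line for 0 counts. Light symbols are GFP-positive and dark symbols GFP-negative libraries, green for cortex and purple for medulla. In the column of Cd74 the cortex GFP-positive libraries lie at 326, 272 and 21.1 CPM and the medulla GFP-negative ones at 18520 and 16790 CPM.

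In the cortex, GFP-positive cells held less of every one of the 10 genes than GFP-negative cells: all 10 were lower at an adjusted p under 0.05 (edgeR's quasi-likelihood test over all 11 libraries, Benjamini-Hochberg over all genes tested), where 7.59% of all genes tested were called lower. Their median log2 change was -4.51, beside 0.03 over all genes tested. No library of one group overlapped the other for any of the 10, and 38.2% of all genes tested also had no overlap here.

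H2-Aa, the class II A alpha chain, measured 182, 171 and 19.6 CPM in cortex GFP-positive libraries 1 to 3 and 2238, 2410 and 3394 CPM in the GFP-negative ones. The GFP-positive libraries were 21.5-fold lower (log2 change -4.43, SE 0.70, adjusted p = 0.00257). H2-Ab1, its beta chain partner, measured 122, 125 and 18.2 CPM against 1867, 1921 and 2702 CPM. Both genes were low in all GFP-positive libraries and lowest in library 3. H2-Ab1 was 24.5-fold lower (log2 change -4.62, SE 0.64, adjusted p = 0.00125). H2-Eb1, the beta chain of the other class II isotype, measured 165, 170 and 8.33 CPM against 2255, 2287 and 3355 CPM, 23.0-fold lower (adjusted p = 0.00641).

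Cd74 measured 326, 272 and 21.1 CPM against 4799, 4627 and 5898 CPM. It was 24.7-fold lower (log2 change -4.63, SE 0.80, adjusted p = 0.00407), with library 3 again far below libraries 1 and 2. The loading genes moved by like amounts. H2-DMa, the H2-DM alpha chain, measured 10.4, 12.6 and 1.89 CPM against 144, 147 and 214 CPM, 20.2-fold lower (adjusted p = 0.00115). H2-DMb1, its main beta chain, measured 6.36, 8.67 and 2.12 CPM against 126, 114 and 147 CPM. At 22.5-fold lower it had the smallest adjusted p of the 10 (log2 change -4.49, SE 0.47, adjusted p = 0.000321). H2-DMb2, the second beta chain gene, stood near the counting floor in GFP-positive libraries (0.0890, 0.129 and 0.405 CPM, 14 counts in all) against 3.02, 3.96 and 6.77 CPM, 21.6-fold lower (adjusted p = 0.00222).

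Ciita, the transactivator of the class II genes, fell to 0.712, 0.258 and 0.0450 CPM in GFP-positive libraries, 23 counts in all, against 8.92, 10.2 and 11.1 CPM in GFP-negative ones. The groups lie far apart, and the GFP-positive values differ among themselves by more than the GFP-negative ones do in ratio. Ciita was 29.4-fold lower (log2 change -4.88, SE 0.68, adjusted p = 0.00136). Cd86, the costimulatory ligand present on resting antigen-presenting cells, measured 3.16, 3.35 and 0.225 CPM against 47.9, 36.7 and 56.3 CPM, 20.8-fold lower (adjusted p = 0.00213). Cd80, its inducible relative, had no count in any cortex GFP-positive library and 1.19, 0.844 and 1.81 CPM in the GFP-negative ones. Taking the floor as 3 counts summed over these GFP-positive libraries, it was at least 29.1-fold lower (adjusted p = 0.0365).

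Library 3 is the only cortex GFP-positive library from 2.5-month-old mice, so its age and the library itself cannot be told apart. The summed CPM of the 10 genes was 10.97-fold lower in it than the mean of libraries 1 and 2, and the sum of 17 macrophage markers was 4.00-fold lower. Without it, 9 of the 10 genes were still called, Cd74 at a log2 change of -4.09 (adjusted p = 0.000446) and Ciita at -4.37 (adjusted p = 0.00226). H2-DMb2 changed by -5.33 without library 3, and Ciita by -6.01 without library 1. The call of Cd80 was lost without any 1 of the 6 cortex libraries or without medulla GFP-negative library 1 (adjusted p = 0.0536 to 0.0849), and with the library number as a block (adjusted p = 0.0791). Within mice of 3.5 months, with 2 libraries a gate, the ratio of GFP-negative to GFP-positive mean CPM was 12.6 to 32.1 over the 9 genes other than Cd80. Within mice of 2.5 months, with 1 library a gate, it was 16.7 to 403.

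**Figure D3:**
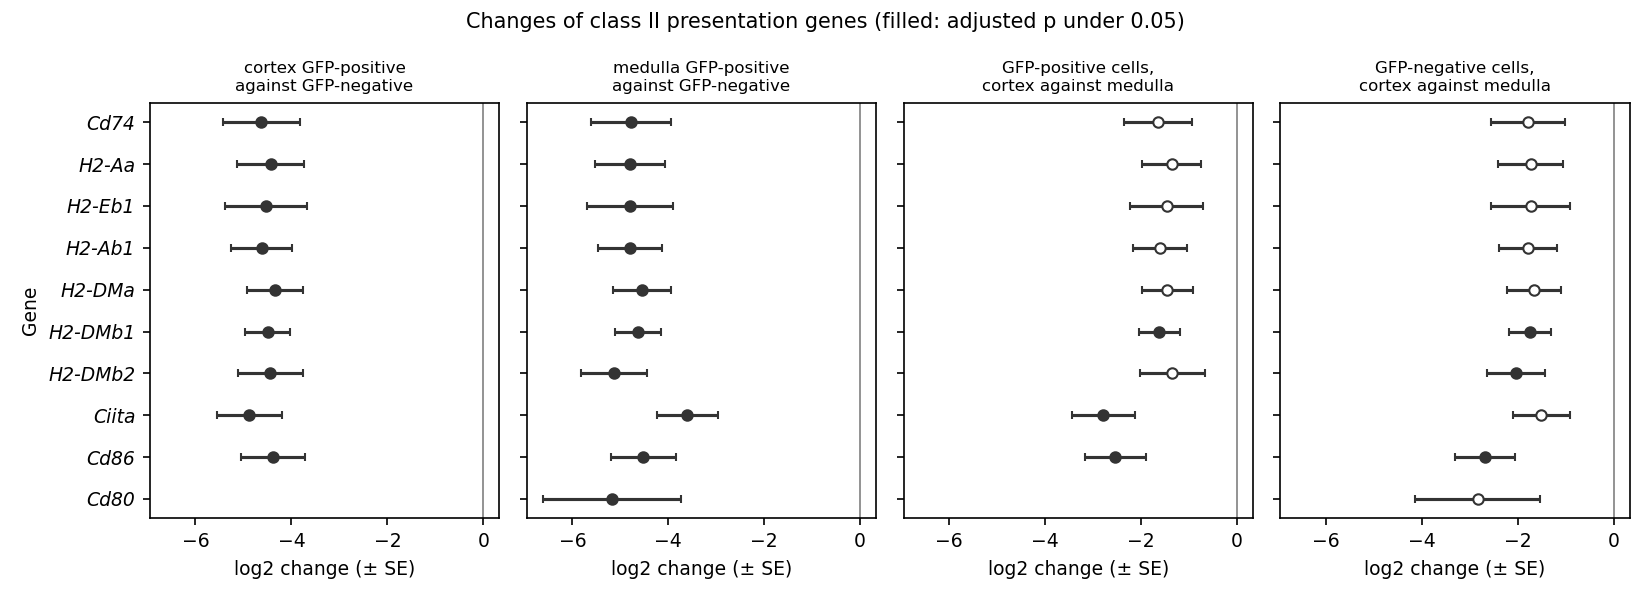
Log2 change of each gene with its SE (x axis) in the 4 pairwise comparisons, first-named group over second-named group. Filled points have an adjusted p under 0.05, and Cd80 is left out where cortex GFP-positive libraries, with 0 counts, are compared. All points of both gate comparisons are filled, and 3 in each comparison of tissues.

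In the medulla all 10 genes were also called lower in the GFP-positive cells, where 11.1% of all genes tested were called lower. The median log2 change was -4.78, beside 0.09 over all genes tested. None of the 10 overlapped between the gates, as was true of 48.1% of all genes tested. The labels give only 2 GFP-negative libraries here, both from mice of 3.5 months.

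Among the chains, H2-Aa measured 301, 454 and 206 CPM in GFP-positive libraries 1 to 3 against 8880 and 8983 CPM, 27.9-fold lower (log2 change -4.80, SE 0.74, adjusted p = 0.00141). H2-Ab1 measured 274, 362 and 172 CPM against 7565 and 7391 CPM, 27.8-fold lower (adjusted p = 0.00078). H2-Eb1 measured 303, 436 and 206 CPM against 8945 and 8569 CPM, 27.8-fold lower (adjusted p = 0.00408). The 3 chain genes share 1 pattern: GFP-positive library 2 was the highest and library 3 the lowest, and all lay far under both GFP-negative libraries. Cd74 followed it, with 715, 861 and 366 CPM against 18520 and 16790 CPM, 27.3-fold lower (log2 change -4.77, SE 0.84, adjusted p = 0.00289).

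H2-DMa measured 29.0, 26.2 and 13.1 CPM against 565 and 500.0 CPM, and H2-DMb1 21.2, 21.2 and 10.2 CPM against 441 and 432 CPM. They were 23.4-fold (adjusted p = 0.00066) and 24.8-fold (adjusted p = 0.000166) lower. H2-DMb2 measured 0.258, 0.938 and 0.365 CPM against 16.8 and 20.9 CPM. At 35.0-fold lower it had the largest called fold of the 9 genes other than Cd80 in this tissue (log2 change -5.13, SE 0.69, adjusted p = 0.000692). Without medulla GFP-positive library 2 its log2 change was -5.89, and with age as a covariate it was -6.14.

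Ciita differed by less here, in the value fitted, than the genes it controls: 1.86, 3.06 and 2.14 CPM against 16.9 and 40.8 CPM, 12.2-fold lower (log2 change -3.61, SE 0.64, adjusted p = 0.00296). Its 2 GFP-negative libraries were further apart in ratio than those of any chain or loading gene, and without the higher one, library 2, the log2 change was -2.84. Library 2 (40.8 CPM) stands further above the GFP-positive libraries than library 1 (16.9 CPM) does, so the fitted change depends on which is kept. Whether Ciita differed from the other members was not tested. Cd86 measured 7.22, 20.6 and 11.3 CPM against 292 and 309 CPM, 22.9-fold lower (log2 change -4.52, SE 0.67, adjusted p = 0.00117).

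Cd80 had 20 counts in GFP-positive library 2 (0.695 CPM) and none in libraries 1 and 3, against 13.9 and 4.50 CPM in the GFP-negative libraries, 36.3-fold lower (log2 change -5.18, SE 1.44, adjusted p = 0.0358). This call was the least stable of the medulla. It was lost without any 1 of GFP-negative libraries 1 and 2, GFP-positive libraries 1 and 3 or the 3 cortex GFP-negative libraries (adjusted p = 0.0502 to 0.157), and the log2 change was -4.17 without GFP-negative library 1 and -5.78 without GFP-negative library 2. Without GFP-positive library 2 no GFP-positive count was left and the call was kept (adjusted p = 0.00357). It was also lost with the library number as a block (adjusted p = 0.0925), with age as a covariate (0.0504) and with only the groups compared (0.0684). Within mice of 3.5 months, with 1 GFP-positive and 2 GFP-negative libraries, GFP-negative over GFP-positive ratios were 15.5 to 73.1 over the other 9 genes.

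The authors' deposited tables of their own comparisons give the same directions for both gates. In them, all 10 genes had an adjusted p under 0.05 in cortex and all 10 in medulla, with a log2 fold change of -4.36 for Cd74 in cortex and of -4.45 in medulla.

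Between the tissues, cortex GFP-positive cells had lower mean levels than medulla GFP-positive cells for all 10 genes, and 3 of the 10 were called lower, where 9.45% of all genes tested were. The median log2 change was -1.61, beside -0.03 over all genes tested. Ciita was 6.89-fold lower (log2 change -2.78, SE 0.65, adjusted p = 0.0177), Cd86 5.82-fold lower (log2 change -2.54, SE 0.63, adjusted p = 0.0234) and H2-DMb1 3.07-fold lower (log2 change -1.62, SE 0.43, adjusted p = 0.0288). The other 7 did not pass, among them Cd74 at -1.65 (SE 0.71, adjusted p = 0.154), H2-Aa at -1.36 (SE 0.62), H2-Ab1 at -1.61 (SE 0.56), H2-Eb1 at -1.46 (SE 0.76) and H2-DMa at -1.45 (SE 0.53). The libraries of the tissues did not overlap for 8 of the 10 genes, against 34.5% of all genes tested, and did overlap for H2-DMb2 and Cd80.

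These calls depended on single libraries. Without medulla GFP-positive library 2 none of the 10 was called, and with only these 6 libraries in the fit the count was also 0. Without cortex GFP-positive library 3 it was 4 (H2-Ab1 joined, at -1.13, adjusted p = 0.0379), and Ciita moved to -3.89 without cortex GFP-positive library 1. With DESeq2 in place of edgeR it was 7. In the authors' deposited table of this comparison none of the 10 had an adjusted p under 0.05, with 0.0513 for Ciita. Within mice of 3.5 months the medulla over cortex ratio was 1.70 to 3.83 over the 9 genes other than Cd80 (2 cortex libraries against 1), and within mice of 2.5 months it was 1.61 to 71.0 (1 cortex library, number 3, against 2).

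GFP-negative cells also had less of each gene in cortex than in medulla, without overlap for 10 of the 10 (49.5% of all genes tested). Of the 10, 3 were called lower, where 10.6% of all genes tested were: Cd86 6.41-fold (log2 change -2.68, SE 0.62, adjusted p = 0.0157), H2-DMb1 3.38-fold (log2 change -1.76, SE 0.44, adjusted p = 0.0209) and H2-DMb2 4.11-fold (log2 change -2.04, SE 0.61, adjusted p = 0.0430). The median log2 change was -1.77, beside -0.02 over all genes tested. Of the genes not called, the fitted folds were 3.33 for H2-Aa, 3.46 for H2-Ab1, 3.33 for H2-Eb1, 3.46 for Cd74 and 3.16 for H2-DMa, with SEs larger than that of H2-DMb1 (0.67, 0.60, 0.82, 0.76 and 0.56 on the log2 scale). Ciita (2.85-fold, SE 0.60) and Cd80 (7.14-fold, SE 1.30) did not pass either.

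The number of calls here moved most with the setting. It was 10 when only the 5 GFP-negative libraries were fitted, 8 with DESeq2, 5 with no filter on low counts and 9 without cortex GFP-positive library 3, a library outside this contrast that shares its estimate of spread. It was 0 without cortex GFP-negative library 1 or 2 or without medulla GFP-negative library 2, and 1 without medulla GFP-negative library 1 or with the library number as a block (H2-DMb2). Within mice of 3.5 months the medulla over cortex ratio was 3.01 to 7.11 over the 9 genes other than Cd80, with 2 libraries a tissue. Cortex libraries of 2.5 months had no medulla partner.

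The effect of the gate was then compared between cortex and medulla with an interaction term. None of the 10 was called, against 1.61% of all genes tested, none had an unadjusted p under 0.05, and DESeq2 also called 0. Of the 10, Ciita came nearest, with an interaction of -1.27 (SE 0.88, adjusted p = 0.520), which is a larger fitted gate difference in cortex. For Cd74 the interaction was 0.14 (SE 1.04), a standard error that leaves room for a several-fold difference either way. These 5 comparisons share their groups and are not independent of each other.

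Relative to Cd74, the chains kept similar proportions over a wide range of levels. Per 100 RPKM of Cd74, and over the 10 libraries other than cortex GFP-positive 3, H2-Eb1 measured 50.5 to 74.3 RPKM, H2-Aa 31.7 to 47.4 and H2-Ab1 32.1 to 40.4. The loading genes were an order below, with 2.56 to 3.99 for H2-DMa and 1.85 to 3.03 for H2-DMb1. Cortex GFP-positive library 3 fell outside all of these ranges, with 47.1 for H2-Eb1, 70.1 for H2-Aa, 74.5 for H2-Ab1, 7.71 for H2-DMa and 9.54 for H2-DMb1. In that library Cd74 was 14.2-fold and H2-Eb1 20.1-fold below the mean of libraries 1 and 2, while H2-Ab1 was 6.76-fold and H2-DMb1 3.55-fold below it.

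**Figure D4:**
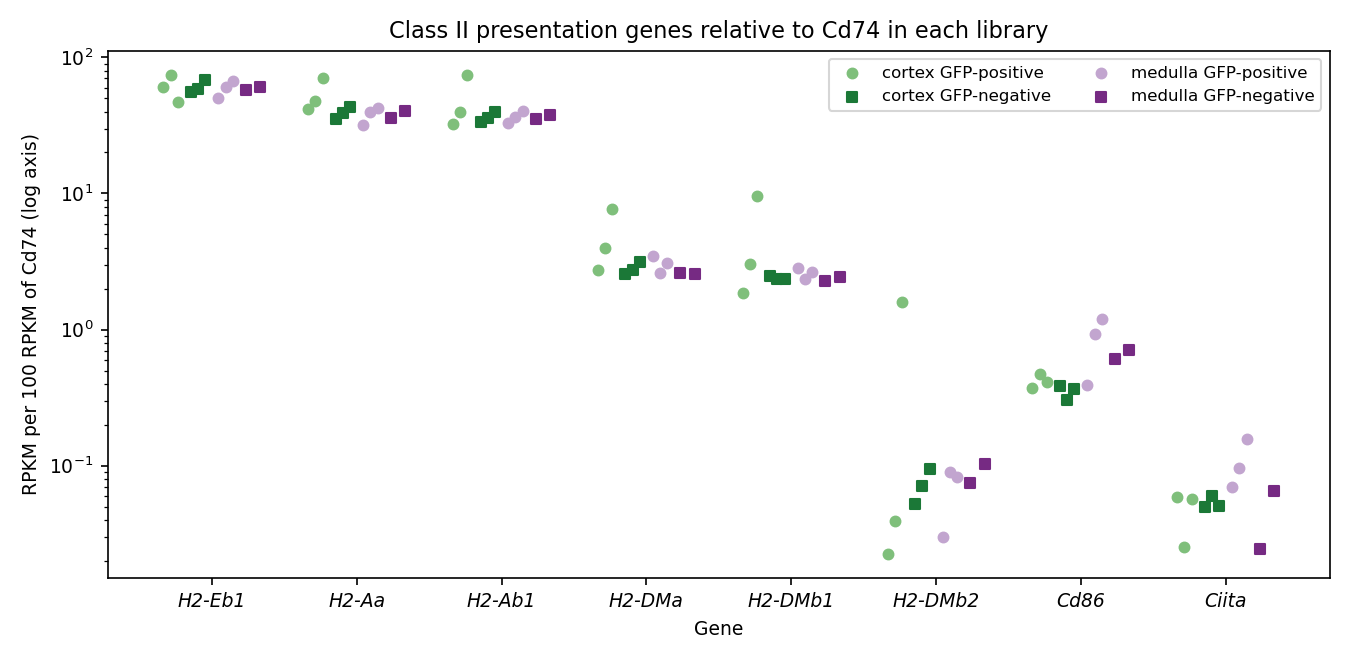
RPKM of each gene per 100 RPKM of Cd74 in each library (log axis), coloured by group. The chain genes, H2-DMa and H2-DMb1 lie in narrow bands except in 1 cortex GFP-positive library (number 3), where H2-DMb1 reaches 9.54, and H2-DMb2 runs from 0.0225 to 0.103 in the other libraries and reaches 1.59 in that one.

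H2-DMb2 and Ciita varied more relative to Cd74. H2-DMb2 made up 1.20% to 4.62% of the summed counts of H2-DMb1 and H2-DMb2 in 10 libraries and 16.1% in cortex GFP-positive library 3 (95% exact interval 7.62% to 28.3%, counting error only). Those are few counts, and H2-DMb1 and H2-DMb2 share 517 stretches of 31 bases (31.4% and 29.7% of their own), so reads from one may have been counted to the other or dropped. Per 100 RPKM of Cd74, Ciita measured 0.0697, 0.0953 and 0.157 in medulla GFP-positive libraries (36, 88 and 41 counts) and 0.0245 and 0.0651 in medulla GFP-negative ones. The medulla gates do not overlap, but their nearest values are 0.0651 and 0.0697. In cortex the ratios of Ciita overlap, at 0.0254 to 0.0585 in GFP-positive and 0.0499 to 0.0594 in GFP-negative libraries. Cd86 measured 0.305 to 0.474 in all 6 cortex libraries, 0.608 and 0.710 in medulla GFP-negative and 0.389, 0.923 and 1.19 in medulla GFP-positive libraries. These ratios are a description and were not tested.

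The other genes of the class II pathway did not all follow. Of 20 matched genes 19 were tested, and 8 were lower in cortex GFP-positive cells and 10 in medulla GFP-positive cells, with 0 higher in either. Over all genes tested, 7.59% were called lower in the cortex gate comparison and 11.1% in the medulla one. The list's median log2 change was -0.58 in cortex and -0.85 in medulla, beside 0.03 and 0.09 over all genes tested. The protease gene Ctss, whose product trims the invariant chain, was lower (log2 change -4.29 in cortex and -4.49 in medulla). March1, which encodes a ubiquitin ligase that removes class II from the surface, was also lower (-4.50, adjusted p = 0.00312, and -5.31, adjusted p = 0.00105). Cortex GFP-positive library 3 was again the lowest, with 6.80 CPM of Ctss against 105 and 135 CPM in libraries 1 and 2, and 0.225 CPM of March1 against 1.51 and 2.79 CPM. H2-Oa and H2-Ob, which encode the inhibitor of H2-DM, were also lower in both gates at few counts: H2-Ob measured 4.48, 1.61 and 4.84 CPM in cortex GFP-negative libraries against 0, 0.472 and 0 in GFP-positive ones, and 9.27 and 9.74 CPM against 0 counts in the medulla. Lgmn, an endosomal protease, was lower by -1.79 and -2.26 and Ifi30, an endosomal thiol reductase, by -1.53 and -2.95.

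The DNA-binding partners of Ciita did not pass the test between gates. Rfx5, Rfxank, Rfxap, Nfya, Nfyb, Nfyc and Creb1, which bind the X and Y boxes, were tested and called in neither gate comparison. Rfx5 measured 4.68 to 6.53 CPM in cortex GFP-positive and 4.68 to 8.47 CPM in cortex GFP-negative libraries, which overlap. The cortex gates did not overlap for Rfxank (7.52 to 8.50 against 11.4 to 14.1 CPM), Nfyb (40.6 to 54.6 against 68.6 to 78.6 CPM) and Rfxap (8.10 to 11.6 against 4.17 to 7.82 CPM). Of all genes tested, 38.2% did not overlap there. In the medulla Nfya did not overlap (5.055 to 6.52 CPM in GFP-positive against 9.13 and 12.05 CPM in GFP-negative libraries). Neither did Nfyc (18.4 to 24.0 against 26.9 and 27.4 CPM), beside 48.1% of all genes tested. No test compared these genes with Ciita. The annotated pseudogene H2-Ea-ps had 0 counts in every library. Over all genes tested, 9.45% were lower in cortex in GFP-positive cells and 10.6% in GFP-negative cells, and 1.61% had an interaction called. In GFP-positive cells, 4 of the 19 genes of this list were lower and 1 higher in cortex than in medulla. In GFP-negative cells 6 were lower, led by Lgmn (-1.81, adjusted p = 0.000632) and Ifi30 (-1.52, adjusted p = 0.00376). Sppl2a, the membrane protease that clears the last fragment of the invariant chain, was the 1 gene of this list with an interaction called (0.91, adjusted p = 0.0295).

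Of 11 tested genes upstream of Ciita, 5 were lower and 1 higher in cortex GFP-positive cells, and 8 were lower and 0 higher in medulla GFP-positive cells. Of all genes tested, 7.59% and 11.1% were called lower there, and 1.61% had an interaction called. An interaction was called for 2 of the 11, among them Ifngr2, a chain of the interferon-gamma receptor (1.41, adjusted p = 0.0223). The median log2 change of the 11 was -1.38 in cortex and -1.67 in medulla, beside 0.03 and 0.09 over all genes tested. Spi1 and Irf8, transcription factor genes of the myeloid lineage, were lower in cortex by -4.74 (adjusted p = 0.000546) and -4.13 (adjusted p = 0.000934) and in medulla by -4.74 and -4.91. Irf1, an interferon-responsive activator, was lower by -1.38 and -1.67. Between tissues, 4 of the 11 were lower in cortex in GFP-positive cells and 9 in GFP-negative cells. For all genes tested the shares were 9.45% and 10.6%. Ifng itself had no count in 10 libraries and measured 1.46 CPM in medulla GFP-negative library 2.

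Of 12 other costimulatory genes 7 were tested, and 3 were lower in each gate comparison. Of all genes tested, 7.59% were called lower in cortex and 11.1% in medulla. The median log2 change of the 7 was -2.66 in cortex and -2.80 in medulla, beside 0.03 and 0.09 over all genes tested. Cd83, which stabilises class II and Cd86 on the surface, changed by -3.41 in cortex (adjusted p = 0.00383) and -5.71 in medulla (adjusted p = 0.00031). It measured 21.5, 11.8 and 2.93 CPM in cortex GFP-positive libraries 1 to 3, lowest in library 3. Icosl, the ICOS ligand gene, changed by -2.36 (adjusted p = 0.00303) and -3.02 (adjusted p = 0.00069). The third was Cd276 in cortex and Tnfsf9 in medulla. Cd274, which encodes the inhibitory ligand PD-L1, was called in neither gate. Between tissues, 4 of the 7 were lower in cortex in GFP-positive cells and 4 in GFP-negative cells. For all genes tested the shares were 9.45% and 10.6%.

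Markers of macrophages moved with the 10 genes in both gates. Of 16 tested macrophage markers 15 were lower in cortex GFP-positive cells (median log2 change -4.42) and 16 in medulla GFP-positive cells (-4.81). Of all genes tested, 7.59% and 11.1% were called lower there, with medians of 0.03 and 0.09. In GFP-positive cells 5 of the 16 were lower in cortex than in medulla, in GFP-negative cells 12 were, and none had an interaction called. For all genes tested the shares lower were 9.45% and 10.6%, and 1.61% had an interaction called. Summed over 17 markers they gave 4361 to 6554 CPM in cortex GFP-negative libraries, 24540 and 24200 in medulla GFP-negative, 523 to 1497 in medulla GFP-positive and 234, 376 and 76.2 in cortex GFP-positive libraries. Of the markers, Itgam was at or near 0 in all libraries (at most 0.394 CPM). Ptprc, also among the 17, is a gene of leukocytes in general. Lyz2 alone averaged 9683 CPM in medulla GFP-negative libraries, so the sums weigh few genes heavily. The summed CPM of the 10 genes per CPM of macrophage markers was 2.41 to 2.63 in cortex GFP-negative, 1.78 and 1.84 in medulla GFP-negative, 1.10 to 1.89 in medulla GFP-positive and 3.49, 2.03 and 0.944 in cortex GFP-positive libraries. The part of macrophages in the differences between groups was not tested.

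**Figure D5:**
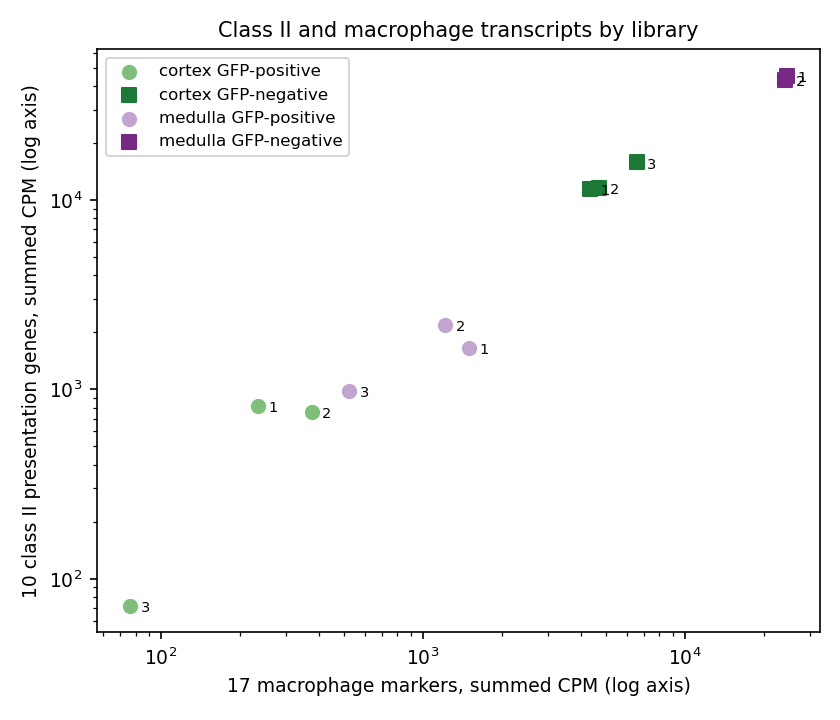
Summed CPM of the 10 genes (y axis) against summed CPM of 17 macrophage markers (x axis), both on log axes, 1 point a library with its number. The libraries fall into separate groups, from cortex GFP-positive 3 (71.9 and 76.2 CPM) to medulla GFP-negative 1 (45250 and 24540 CPM).

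Across the 11 libraries, the 5 tested genes outside the 10 whose log2(CPM + 0.5) was most like that of Cd74 were Ctss (Pearson r = 0.995), Ccl6 (0.995), Acp5 (0.994), Lpcat2 (0.994) and Ptprc (0.994), where Ptprc encodes the pan-leukocyte antigen CD45. Within the 10, r with Cd74 ran from 0.850 for Cd80 to 0.998 for H2-Eb1. The libraries fall into separate groups and share depth and normalization, and 126 tested genes had an r of 0.95 or more, so these values describe the order of the groups.

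The sums of dendritic, B and T cell markers were each lower than that of the macrophage markers in every library. The lists hold different genes, so these sums do not measure how many cells of each type were present. The sum over 10 dendritic cell markers was 56.4 to 108 CPM in cortex GFP-negative libraries, 126 and 283 in medulla GFP-negative, 8.64 to 19.5 in cortex GFP-positive and 19.8 to 22.2 in medulla GFP-positive libraries. Of the 8 tested, 3 were lower in cortex and 4 in medulla GFP-positive cells, beside 7.59% and 11.1% of all genes tested. Ccr7 was at 0 everywhere. The sum over 9 B cell markers was at most 25.4 CPM in any library. The sum over 9 T cell markers was 30.1 and 34.6 CPM in medulla GFP-negative libraries, 6.89 to 15.4 in cortex GFP-negative and at most 10.4 in GFP-positive libraries. Of these markers Cd4 gave 28.4 and 31.4 CPM in medulla GFP-negative libraries, and Cd3e was at 0.0522 CPM or less in all libraries. Medulla GFP-negative library 2, which held 40.8 CPM of Ciita against 16.9 in library 1, also held more of several dendritic cell markers. Cd209a measured 38.6 CPM there and 0 in library 1, Xcr1 7.02 against 0.402, Clec9a 13.7 against 4.56, and Zbtb46 46.8 against 5.99. Cd74 was slightly lower in library 2 (16790 against 18520 CPM). Endothelial markers (9 genes) summed to 938 CPM in library 2 and 281 CPM in library 1, the steroid cell markers to 8204 and 15440 CPM, and Spi1 measured 303 and 118 CPM. The part of any of these in the level of Ciita was not tested.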

How the data were processed

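Per the labels' protocols, cDNA was made from sorted cells with an oligo-dT primer and template switching, amplified, and tagmented. This protocol marks no strand. Dexi (over Ciita) and Gm20513 (over H2-Eb1) lie on the other strand and so cannot be told apart from these genes where they overlap. Brd2 is annotated over H2-DMa on the other strand. The RefSeq starts of H2-DMa lie upstream of its counted span, so that overlap may fall outside the span counted. Mir5107 lies inside Cd74 on the same strand and cannot be told apart from it there either. The authors deposited whole-number counts per gene with a gene length in bases, and tables of their own comparisons holding log2 fold changes and p-values. The build mm10 and the tools featureCounts 1.6.0, GSNAP, DESeq2 1.18.1 and bcl2fastq 2.19.1 are listed, without roles, in the submitters' processing notes. From the deposited tables, 17 columns of values per library and 6 of group means were not used.

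The counts were fitted for all 11 libraries with edgeR 4.0.16 in R 4.3.3 (quasi-likelihood test, TMM scaling, filterByExpr, 4 groups, Benjamini-Hochberg over 20893 genes, threshold 0.05). The SE was approximated from the log2 change and its F statistic. CPM uses TMM-scaled totals, RPKM is CPM per kilobase of deposited length, and intervals and floors (3 counts) cover counting error only. The 92 spike-in sequences, with 10 counts, were left out. The fit was tested on simulated data. Libraries of 1 group differed by more than sampling noise (chi-square per degree of freedom 29.1 to 104). The alternatives were DESeq2 1.42.0, no TMM, no filter, the library number as a block, age as a covariate, only the groups compared, and each library left out. The 10 genes and all lists were chosen with earlier results of these data known. Named were the 10 genes in every group, in other lists those with a class II role and the called genes of largest change, the 5 genes most like Cd74, and Nes. Markers named one by one for dendritic, B and T cells and Itgam were chosen after their values were seen. Some genes of the lists are not reported here by name.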

Additional observations from a re-analysis of the deposited data

How the results depend on the processing

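Counts of the 10 genes called were the same or within 1.5 times in cortex (9 to 10) and medulla (9 to 10) under every alternative run, and the gene lost was Cd80. In GFP-positive cells, cortex against medulla, the count of 3 became 7 with DESeq2 and 0 with only the groups compared, and ran from 0 to 4 when 1 library was left out. In GFP-negative cells the count of 3 became 8 with DESeq2, 5 with no filter, 10 with only the groups compared and 1 with the replicate block, and ran from 0 to 9 when 1 library was left out. The cause was not tested. With 1 library left, as in medulla GFP-negative cells when the other is left out, the lone library is assumed to vary like the other groups.

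The replicate block gave 9 calls in cortex, 9 in medulla, 3 and 1 between tissues and 0 for the interaction. For 15 pairs of libraries with 1 number, r of their deviations from the group means was -0.01 to 0.12, and 1 exceeded 0.1. For 30 pairs with different numbers it was -0.122 to 0.047, and 0 exceeded 0.1. Deviations within a group sum to 0, so these values are not independent of each other. In medulla GFP-negative cells the 2 libraries are mirror images, and cortex GFP-positive 1 gave 0.122 with library 1 and -0.122 with library 2. The contrast between same and different numbers was therefore partly fixed in advance, and no conclusion is drawn from it. Medulla GFP-positive library 2 came from mice of about 2.5 months, and the other libraries numbered 2 from mice of about 3.5 months. Unless a pool mixed ages, number 2 does not mark the same pool in all groups, and the block joins libraries of different mice there. Whether the other numbers mark a pairing was not tested.

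No interaction was called under any setting run, and its sign changed for several genes. With the replicate block it was -0.21 for H2-Aa, -0.35 for H2-Ab1, -0.46 for H2-Eb1, -0.24 for H2-DMa, -0.21 for H2-DMb1, -0.67 for Cd74 and -0.13 for Cd86. With age as a covariate it was -0.17 for H2-Aa, -0.36 for H2-Ab1, -0.44 for H2-Eb1, -0.35 for H2-DMa, -0.29 for H2-DMb1 and -0.75 for Cd74. With total counts alone it was -0.006 for H2-Ab1, -0.043 for H2-DMb1, -0.044 for Cd74 and -0.042 for Cd86, where the median of all genes shifted to -0.19. With 1 library left out it ran from -0.071 to 0.66 for H2-Ab1, -0.045 to 0.82 for H2-Eb1, -0.14 to 0.68 for H2-DMa, -0.21 to 0.53 for H2-DMb1, -0.20 to 1.46 for H2-DMb2, -0.29 to 0.68 for Cd74, -0.18 to 0.67 for Cd86 and -3.78 to 2.84 for Cd80. Without division by length the ratio of Cd74 to H2-Aa in medulla GFP-negative cells was 1.98 in place of 2.63.

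Cd80 in cortex GFP-positive cells, with 0 counts, and H2-DMb2 and Ciita there, with 14 and 23 counts, are limited by depth.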

Other observations

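Genes of MHC class I presentation, which displays peptides from the cytosol to CD8+ T cells, differed less between the gates than the class II genes did in the values fitted. Of 14 tested, 4 were lower in cortex GFP-positive cells (median log2 change -0.45) and 9 in medulla GFP-positive cells (-0.88). Of all genes tested, 7.59% and 11.1% were called lower there, with medians of 0.03 and 0.09. Between tissues 9.45% of all genes were lower in cortex in GFP-positive and 10.6% in GFP-negative cells, and 1.61% had an interaction called. B2m, the light chain of class I, measured 2474, 3233 and 2467 CPM in cortex GFP-positive libraries against 1908, 2131 and 2636 CPM in cortex GFP-negative ones, which overlap, and was not called. In the medulla it was lower (log2 change -0.69, adjusted p = 0.0377 by edgeR's quasi-likelihood test). Psmb8 and Psmb9, subunits of the immunoproteasome, were lower in both gates, Psmb9 by -1.04 in cortex and -1.51 in medulla. Between tissues, 6 of the 14 were lower in cortex in GFP-positive cells and 12 in GFP-negative cells, led by Nlrc5, the class I counterpart of Ciita (-1.45, adjusted p = 0.0407, and -2.08, adjusted p = 0.0110). H2-K1, a class I heavy chain gene, was the 1 gene of the 14 with an interaction of gate and tissue called (1.23, adjusted p = 0.0359).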
